A study of Fragaria x ananassa with 6 samples.

Results

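The transcripts that gave the brightest array signal in ripe control strawberry receptacles were described, and their signals were followed into receptacles that had received an RNAi construct against FaPRE1. The 150 genes were selected on their control signal alone: for each gene the log2 processed signal was averaged over its spots in the control channel of each array and then over the 3 arrays, and the 150 highest of 35116 genes were taken. The samples were Fragaria x ananassa fruits attached to the plant and injected with Agrobacterium tumefaciens, carrying the empty pFRN vector in the 3 control samples and the pFRN-FaPRE1 construct in the 3 RNAi samples. All 6 samples were therefore agroinfiltrated, the silencing was transient, and each sample was a pool of ripe fruits from which the achenes, the seed-bearing true fruits, had been taken off. Each of the 3 arrays held 1 control and 1 RNAi sample of the same replicate number in 2 colours, with control in Cy5 on arrays 1 and 3 and in Cy3 on array 2.

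The strawberry receptacle is the fleshy part of the fruit. As it ripens it turns red by anthocyanin synthesis from chalcones and flavanones, softens as pectin is cut, and makes its aroma from furanones, esters of volatile alcohols and other volatiles. FaPRE1 encodes an atypical HLH protein, which lacks the basic region that binds DNA and acts through other transcription regulators. Very abundant transcripts of a fruit commonly include those of enzymes that make colour and aroma, of stress proteins such as metallothioneins, and of the translation machinery.

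All 150 genes were measured by probes well above background in all 6 samples, and all passed the filter on dim probes. Their mean control level ran from 16.12 to 19.82 on the scale of log2 processed signal, with a median of 16.71, against a median of 6.49 over all genes of the array. The lowest gene inside the threshold was gene26519 at 16.1173, and the first gene outside it was gene18503, an SKP1-like gene, at 16.1168, so nothing separated the members from the next genes. Probes differ in how brightly they hybridise, so these levels order probes and only loosely order transcripts, and levels are not compared between genes beyond that selection. In the parts of the study's tables used here, 21 of the 150 genes had a description, and another 8 carried a strawberry gene name on the array, while 121 had neither here and are given by identifier. Of the 21 descriptions, 13 came from tables of genes that the study had chosen for their change on these same samples, so that counts over described genes are not independent evidence of a direction. The other 8 came from a run of identifiers described irrespective of change.

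Some facts of the whole series bear on what follows. The share of gene spots well above background was 60.7% to 72.7% in the control and 44.1% to 60.4% in the RNAi samples. Changes are log2 ratios of RNAi over control within an array after loess, a curve fitted through the gene spots along their brightness. A ratio of 0 thus stands for the trend of gene spots of similar brightness, not for 1 reference common to all genes. The median ratio of all genes tested was -0.04. Against spike-in transcripts, control RNAs foreign to the plant, that median lay at -2.13, the RNAi samples giving less gene signal per spike-in signal than the control samples. The ratio of the probe that the array names FaPRE1 was -0.52 (SE 0.11, n = 3 arrays, limma adjusted p = 0.0152), whereas gene30478, which the study assigns to FaPRE1, was at -0.33 (SE 0.17, n = 3 arrays, adjusted p = 0.184) with -0.01, -0.76 and -0.21 on arrays 1, 2 and 3.

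Described markers were used to check the labelled tissue. Among the 8 described ripe receptacle markers, 4 were members, the 7 tested were all lower in RNAi, and their summed log2 signal lay at 18.32 to 18.54 in control against 15.70 to 16.55 in RNAi samples. The ripe markers that were members had their descriptions from genes the study chose as lower in these RNAi samples. Their direction is therefore no independent check. None of the 10 described achene markers (storage and late embryogenesis proteins) was a member, the brightest ranking 1706 in control, and 7 were higher and 1 lower in RNAi. Their summed log2 signal was 13.45 to 13.94 in control and 17.13 to 17.29 in RNAi. None of 21 described green tissue markers was a member either. Of the 20 tested, 16 were higher, with a summed log2 signal of 15.41 to 15.73 in control and 16.96 to 17.22 in RNAi. Over all genes tested, 16.9% were higher and 17.9% lower. The descriptions of achene and green tissue markers could also come from genes the study chose for their change in these samples. The direction of those markers is therefore no independent check either. In such bulk samples, fewer cells of a type and less RNA per cell cannot be told apart, and the part that other cells had in the values below was not tested.

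The brightest transcripts of control receptacles differed in both directions in RNAi. Of the 150 genes, 60 (40%) were lower and 32 (21.3%) were higher in RNAi at an adjusted p under 0.05 in limma, and 58 were not called. These counts depend on the scaling. The scanner software's processed signals gave 15 higher and 59 lower genes. Median centring of all spots instead of loess gave 0 of either, with the members' median at -1.68. Large falls were larger on that scale but missed the threshold narrowly, as for FaATT1 (-5.40, limma adjusted p = 0.0512) and FaQR (-4.58, adjusted p = 0.054). Rises shrank, as for gene32880 (1.30, adjusted p = 0.0977), or reversed, as for gene00646 (-0.16, adjusted p = 0.867). Over all 21098 genes tested, 34.8% were called, 17.9% lower and 16.9% higher. Since the control signals chose the genes and are also one side of every ratio, these counts are a description and say nothing by themselves about bright genes. All 92 called genes had the same sign on the 3 arrays, and the control and RNAi signals did not overlap for 106 of the 150 genes, against 50.7% of all tested genes. Changes beyond 2-fold were seen for 40 of the lower and 13 of the higher genes, while over all tested genes 4.7% were lower and 6.19% higher by as much. Beyond 4-fold there were 16 lower and 4 higher genes, against 0.64% and 1.32% of all tested genes. The median ratio of the 150 genes was -0.20, with quartiles at -1.09 and 0.39, whereas the quartiles of all tested genes were -0.33 and 0.28. The lowest ratio among the members was -3.93 and the highest 2.73.

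**Figure D1:**
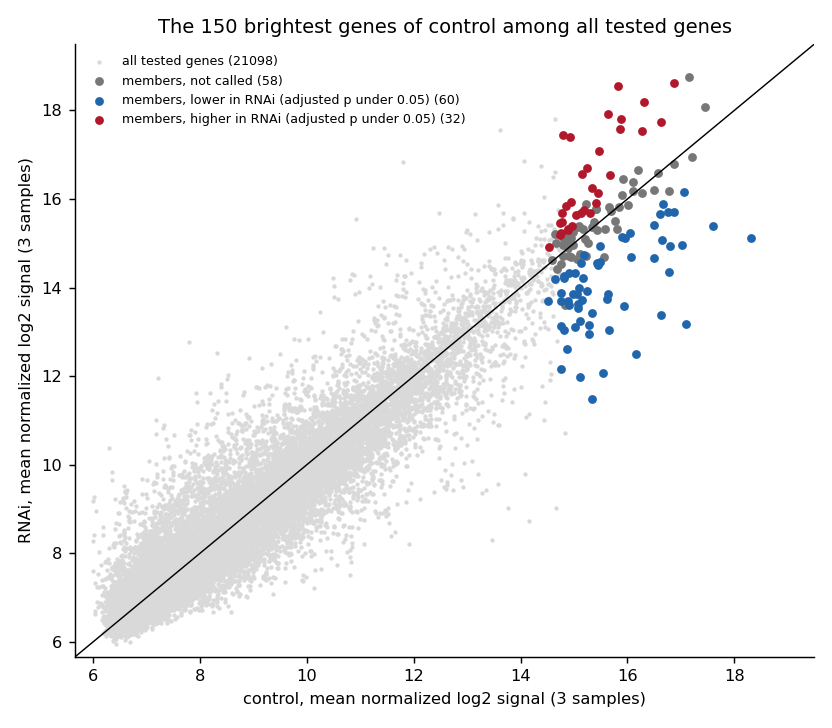
Mean normalized log2 signal of each gene in the 3 control samples (x axis) against the 3 RNAi samples (y axis), with all 21098 tested genes in grey and the 150 members coloured by their limma call. The line marks equal signals, and the members fan out on both sides of it, 60 called lower below and 32 called higher above.

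**Figure D2:**
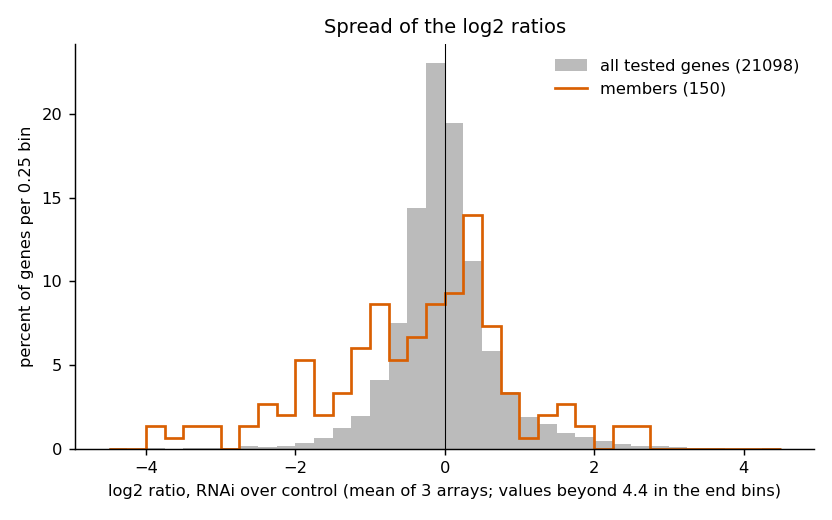
Percent of genes (y axis) per bin of the log2 ratio of RNAi over control (x axis, mean of 3 arrays) for the 150 members (line) and all tested genes (filled). The quartiles of the members lie at -1.09 and 0.39 against -0.33 and 0.28.

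Replicates repeated the pattern in part. The ratios of the 150 genes correlated across genes at 0.81, 0.91 and 0.91 between the pairs of arrays, a description over 150 genes that share samples and probes. The median ratio of the members was -0.26 on array 1, -0.02 on array 2 and -0.26 on array 3, and array 2 is the one where control was in Cy3. To read the ratios on an array that had not chosen the genes, the 150 brightest control genes were also taken from the other 2 arrays each time. These sets shared 138, 142 and 144 genes with the members. On the array left out, their median ratio was -0.28, 0.12 and -0.16 for arrays 1, 2 and 3, with 47, 32 and 44 genes below -1 and 13, 17 and 22 above 1. Among all tested genes, 4.65%, 7.68% and 5.46% were below -1 and 5.78%, 7.31% and 7.77% above 1 on those arrays. A sign for the middle of the set was therefore not settled by the replicates.

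The direction also depended on which group chose the genes. The 150 brightest genes of RNAi held 80 higher and 15 lower calls, with a median ratio of 0.56, and the 150 brightest by the mean of both groups held 54 higher and 32 lower calls, with a median of 0.27. Against the spike-ins, 146 of the 150 members had a ratio below 0, with a median of -2.29. The word "higher" therefore means above the trend of gene spots of similar brightness on the same array. It need not mean higher against the spike-ins or than the typical gene. Values against the spike-ins are loess ratios with 1 constant shift of -2.09 added, and carry no test. The brightness trend that loess removed is thus left out of them. Without replicate 3, 61 members were called, and without replicate 2, 66. The fall in calls was steeper among the higher genes, which numbered 18 and 16 without replicates 2 and 3.

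The brightest genes kept or lost their place in RNAi in a graded way. Of the 150 genes, 95 were also among the 150 brightest of RNAi and 55 were not. The median rank in RNAi was 108.5, with 31 genes beyond rank 300 and 5 beyond rank 1000, the furthest being FaATT2 at rank 1826. All 32 genes called higher stayed among the 150 brightest, as did 48 of the 58 genes not called and 15 of the 60 genes called lower. Among single samples, 118 to 131 of the 150 brightest genes were shared between 2 control samples and 128 to 139 between 2 RNAi samples. Between a control and an RNAi sample, 81 to 103 were shared over the 9 pairs, fewer than for any pair within a group. Of the 20 brightest control genes, 5 were among the 20 brightest of RNAi.

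**Figure D3:**
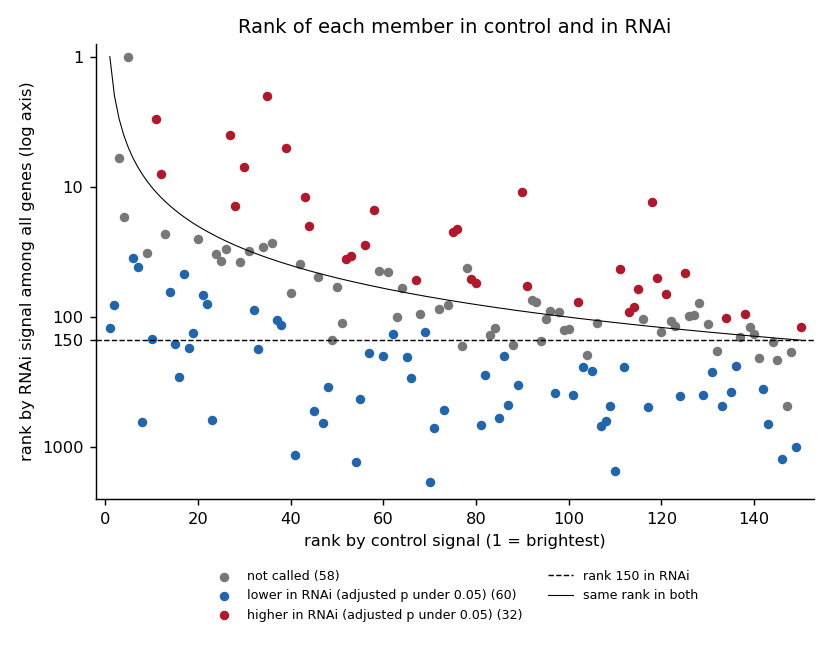
Rank of each of the 150 members by control signal (x axis) and by RNAi signal among all genes (y axis, log scale, brightest at the top), coloured by limma call, with a dashed line at rank 150 and a curve where both ranks are equal. Genes called higher lie above the dashed line, and 55 members lie below it.

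Bands of the control rank were also described. Among control ranks 1 to 50, 23 genes were lower and 9 higher, with a median ratio of -0.45 and a median RNAi rank of 44. For ranks 51 to 100 there were 18 lower and 11 higher genes with a median of -0.13, and for the remaining ranks there were 19 lower and 12 higher with a median of -0.02. Changes above 1 numbered 9, 4 and 1 in the successive bands, and changes below -1 numbered 17, 11 and 13. In the same order, 40, 31 and 24 genes of each 50 were also among the 150 brightest of RNAi. These bands come from the control signal itself, and no test was made between them.

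Genes that entered the 150 brightest of RNAi came from a median control rank of 264 and from as far down as rank 2823. The brightest of them were gene22087, which rose from rank 159 to rank 9, and the undescribed M21A4RB__, which rose from rank 361 to rank 10. The normalized log2 signals of gene22087 were 14.41, 14.45 and 15.10 in control 1, 2 and 3 and 17.96, 17.41 and 18.03 in RNAi 1, 2 and 3, so that all RNAi samples lay above all controls. Their log2 ratios were 3.15 (SE 0.16, adjusted p = 0.00037) and 3.93 (SE 0.13, adjusted p = 0.000308). Opposite to them stood the gene just outside the threshold, gene18503. The product of an SKP1 gene is a subunit of SCF ubiquitin ligases. Signals of gene18503 were 13.77, 15.34 and 14.89 in control and 9.05, 8.89 and 9.15 in RNAi, a ratio of -5.64 (SE 0.32, adjusted p = 0.000492), and its rank in RNAi was 7499.

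The members held a smaller share of all signal in RNAi by the scanner software's processed signals. They made up 29.5%, 32.3% and 28.9% of the summed processed signal of all genes in control 1, 2 and 3, and 23.9%, 29.3% and 24.4% in RNAi 1, 2 and 3. The mean was 30.2% ± 1.82 in control and 25.8% ± 2.98 in RNAi (SD, n = 3), and the share was lower in RNAi on 3 of 3 arrays. Because the rule used the control side, this difference is a description. Its exact paired permutation test gave p = 0.25 (two-sided, n = 3 arrays), the smallest p possible, and is not read as evidence. With background-subtracted median signals in place of processed signals, the difference turned from -4.38 to 0.34 percentage points, so its direction depends on the correction of the signals. The genes that were brightest in each sample itself give a measure that treats both groups alike. The 150 brightest genes of each sample held 30.1%, 32.9% and 29.2% of its summed signal in control and 30.4%, 34.2% and 31.5% in RNAi, higher by 0.27, 1.37 and 2.35 percentage points on arrays 1, 2 and 3. An exact paired permutation test gave p = 0.25 (two-sided), which is the smallest that 3 pairs allow. With background-subtracted median signals that difference was 6.25 percentage points.

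**Figure D4:**
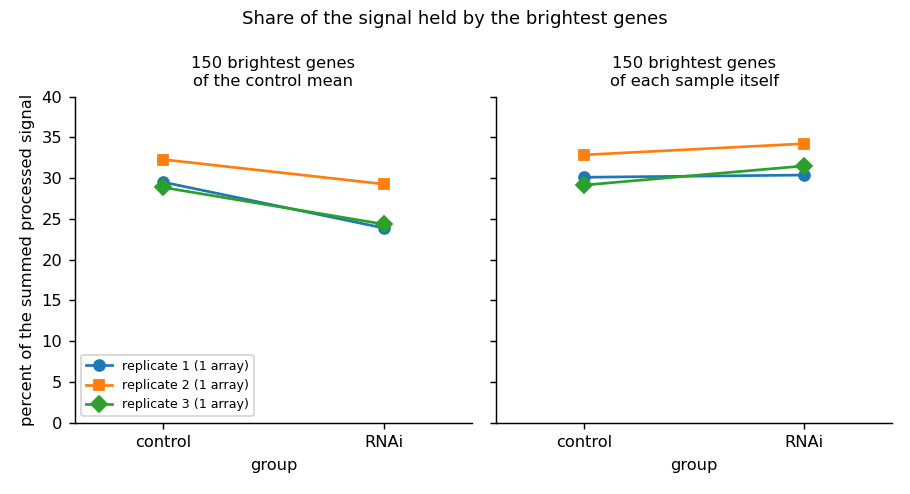
Percent of the summed processed signal (y axis, from 0) held by the 150 members (left) and by the 150 brightest genes of each sample itself (right) in control and RNAi samples, with a line joining the samples of 1 array. The members' share is lower in RNAi on all 3 arrays, while the share of each sample's own brightest genes is slightly higher, by 0.27 to 2.35 percentage points.

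The 29 members with a description or an array name were mostly lower in RNAi, with 23 lower, 1 higher and 5 not called. Of the 121 members with neither, 37 were lower, 31 were higher and the rest were not called. Since 13 of the descriptions come from the study's lists of changed genes, this contrast follows in part from how genes were described. Within the run of 1598 genes that were described irrespective of change, the 8 members comprised 4 lower, 1 higher and 3 genes not called.

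**Figure D5:**
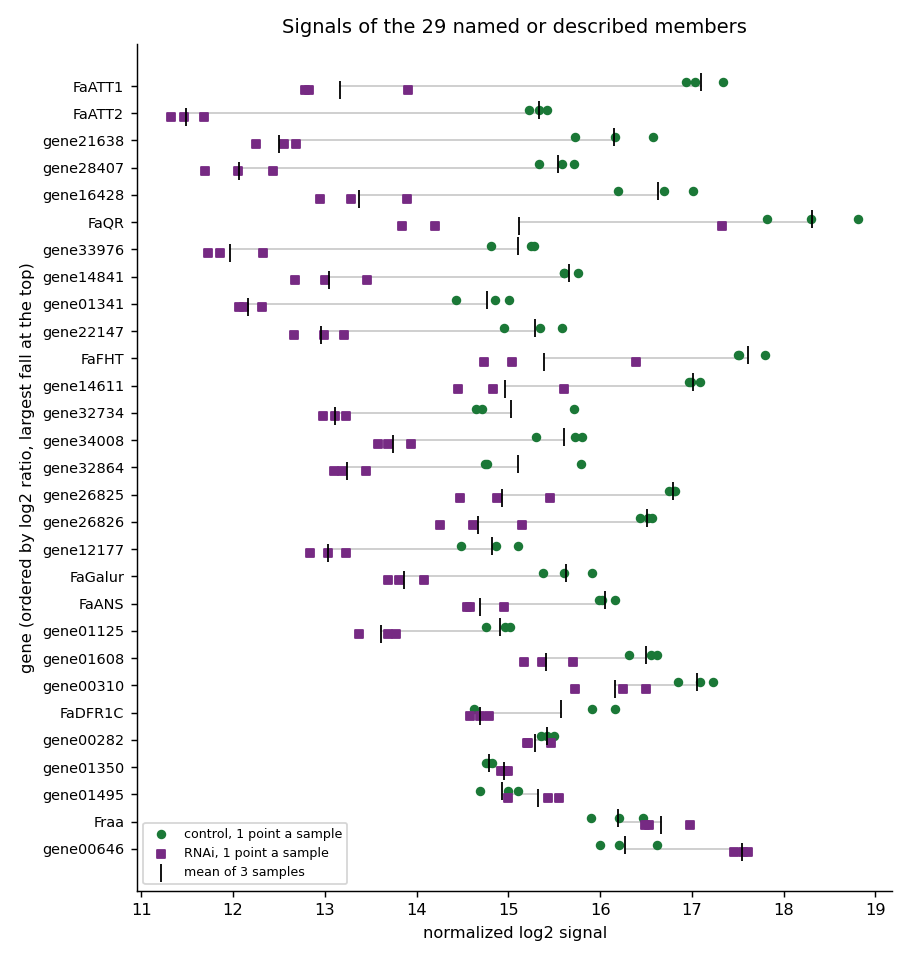
Normalized log2 signal (x axis) of the 29 named or described members in each control sample (circles) and RNAi sample (squares), with a tick at each mean of 3 and genes ordered by their log2 ratio. Control and RNAi samples stand fully apart for the genes in the upper rows and overlap for FaDFR1C, gene00282 and gene01495.

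Genes of flavonoid and anthocyanin synthesis formed the largest described group, with 6 members, though FaFHT and gene14611 may be the same gene on separate probes. Of the 6, 5 were lower, none was higher and 1 was not called, with a median ratio of -1.85. The members without an array name had their descriptions from genes the study chose as lower in these RNAi samples. For those members the direction is no independent check. Of the 6 other described and tested genes of that list, 4 were lower and none higher, with a median of -1.75. Here and in the lists below, descriptions of such other genes could also come from the study's lists of changed genes. Their direction is thus no independent comparison. The pathway is given here in the order of its steps.

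Chalcone synthase opens the pathway by building the chalcone skeleton, and gene26825 and gene26826, at control ranks 15 and 18, carry its description. The signals of gene26825 were 16.75, 16.80 and 16.81 in control 1, 2 and 3 and 14.87, 15.45 and 14.48 in RNAi 1, 2 and 3. Those of gene26826 were 16.43, 16.56 and 16.52 in control and 14.61, 15.15 and 14.25 in RNAi. The control samples agreed closely for both genes, RNAi 2 was the highest RNAi sample, and no RNAi sample reached a control sample. The log2 ratios were -1.85 (SE 0.20, n = 3, limma adjusted p = 0.00238) and -1.84 (SE 0.18, n = 3, adjusted p = 0.00183), and both genes left the 150 brightest, at RNAi ranks 160 and 171. Their ratios differed by 0.02 on the mean of the arrays (SD of the difference 0.08, n = 3). The 2 genes have neighbouring identifiers, and whether their probes read each other's transcripts was not tested.

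Flavanone 3-hydroxylase, which makes dihydroflavonols from flavanones, was represented by FaFHT and by gene14611. FaFHT was the second brightest gene of control, with signals of 17.52, 17.80 and 17.51 in control and 15.04, 16.39 and 14.74 in RNAi. For gene14611 the signals were 16.97, 16.99 and 17.09 in control and 14.83, 15.60 and 14.45 in RNAi. RNAi 2 again lay above the other RNAi samples but under the controls. FaFHT fell by 2.22 (SE 0.27, adjusted p = 0.00317), or 4.66-fold, and gene14611 fell by 2.05 (SE 0.24, adjusted p = 0.00297), or 4.14-fold. FaFHT still ranked 81 in RNAi, and gene14611 ranked 146. The ratio of FaFHT minus that of gene14611 was -0.17 on the mean of the arrays (SD 0.16, n = 3). The study calls gene14611 FaF3H, and whether both probes read the same gene was not tested.

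Dihydroflavonol 4-reductase, which makes the colourless precursors of anthocyanidins, did not pass the test. FaDFR1C gave 14.63, 16.17 and 15.92 in control 1, 2 and 3 and 14.79, 14.69 and 14.58 in RNAi 1, 2 and 3. Control 1 stood apart from the other controls and at the level of the RNAi samples, and the groups overlapped. The ratio was -0.88 (SE 0.33, 95% interval -1.69 to -0.07, adjusted p = 0.0864). Without replicate 1 it was -1.40 (adjusted p = 0.000415), while its adjusted p ran from 0.000415 to 0.333 over the settings tried. Anthocyanidin synthase, which makes the coloured anthocyanidins, was read by 2 probes as FaANS. Its signals were 16.02, 15.99 and 16.16 in control and 14.58, 14.95 and 14.55 in RNAi, with no overlap, and it fell by 1.36 (SE 0.15, adjusted p = 0.00233), or 2.58-fold.

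All 4 members of the aroma list were lower in RNAi, with a median ratio of -3.16. Apart from FaQR, these members had their descriptions from genes the study chose as lower in these RNAi samples. Their shared direction is therefore no independent check. FaQR and gene28407, treated below, go by the same gene name, so the list may hold the same gene on separate probes. Of the 26 other described and tested genes of this list, 16 were lower and 4 higher, with a median of -1.49. For them too, descriptions could come from the study's lists of changed genes. The quinone oxidoreductase FaQR, which forms the furanone furaneol, a caramel-like note of strawberry, was the brightest gene of control. Its signals were 18.29, 18.81 and 17.81 in control 1, 2 and 3 and 13.84, 17.33 and 14.19 in RNAi 1, 2 and 3. RNAi 2 stood more than 3 units above the other RNAi samples and close to the lowest control, so that the ratios were -4.46, -1.48 and -3.62 on arrays 1, 2 and 3. FaQR fell by 3.19 (SE 0.53, 95% interval -4.51 to -1.86, adjusted p = 0.00827), and was still at rank 121 in RNAi. Its spots reached 99.8% of the scanner's saturation value in control 3, although none of the 261 spots of the members was marked as saturated. No more than 4 spots of the members exceeded 90% of that value in any sample, and these were in the Cy5 channels. What such bright spots did to the size of the ratios was not tested.

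The gene model gene28407, described as a 2-methylene-furan-3-one reductase-like gene, is the one that the study calls FaQR. It gave 15.72, 15.33 and 15.59 in control and 12.06, 12.43 and 11.69 in RNAi. Here RNAi 2 stood only slightly above the other RNAi samples, far below the controls. The ratio was -3.48 (SE 0.21, adjusted p = 0.000526), an 11.2-fold fall that took gene28407 from rank 54 to rank 1286. The ratio of FaQR minus that of gene28407 was -0.80, 1.42 and 0.28 on arrays 1, 2 and 3, a mean of 0.30 ± 1.11 (SD, n = 3), so that the probes did not differ beyond the spread between arrays.

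The other aroma members, gene34008 and gene33976, are described as vinorine synthase-like. Vinorine synthase, an acetyltransferase of alkaloid synthesis in Rauvolfia, belongs to the plant acyltransferase family that also holds the alcohol acyltransferases of fruit esters. Signals of gene34008 were 15.80, 15.30 and 15.73 in control and 13.58, 13.69 and 13.94 in RNAi, and it fell by 1.87 (SE 0.15, adjusted p = 0.00118). Signals of gene33976 were 15.24, 14.81 and 15.27 in control and 11.85, 12.33 and 11.73 in RNAi, and it fell by 3.14 (SE 0.22, adjusted p = 0.000844). For neither gene did the groups overlap. They moved from ranks 55 and 110 to ranks 425 and 1514.

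The largest falls among the members were those of the array probes named FaATT1 and FaATT2. These names are not explained in the sources used here, so no role is given. FaATT1, rank 8 in control, had signals of 17.04, 17.33 and 16.94 in control and 12.82, 13.90 and 12.78 in RNAi. FaATT2, rank 70, had 15.33, 15.42 and 15.23 in control and 11.33, 11.68 and 11.47 in RNAi. All RNAi samples lay over 3 units below all controls for both genes. FaATT1 fell by 3.93 (SE 0.18, adjusted p = 0.000332), or 15.3-fold, and FaATT2 fell by 3.84 (SE 0.12, adjusted p = 0.000308), or 14.3-fold.

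Pectin degradation was represented by genes that moved in opposite directions. The study's FaPG1, gene21638, is described as exopolygalacturonase-like, a class of enzymes that cut the pectin backbone. Its signals were 15.72, 16.57 and 16.16 in control and 12.55, 12.69 and 12.25 in RNAi, and it fell by 3.65 (SE 0.18, adjusted p = 0.00034), or 12.6-fold, from rank 41 to rank 1138. Its description came from genes the study chose as lower in these RNAi samples, so its fall is no independent check. By contrast gene00646, described as polygalacturonase 1 beta 3, was the only named member that was higher. In tomato, a beta subunit of this kind binds polygalacturonase without being an enzyme itself. It gave 16.21, 16.00 and 16.62 in control and 17.61, 17.56 and 17.45 in RNAi, a rise of 1.27 (SE 0.17, adjusted p = 0.00421) from rank 28 to rank 14. That rise depends on the scale, since gene00646 was at -0.82 against the spike-ins and at -0.16 (adjusted p = 0.867, from 0.00157 to 0.867 over the settings) with median centring of all spots. Of the 13 other described genes of the list, 2 were lower and 7 higher.

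Some described members belonged to none of the lists above and are given one by one. The described acyl carrier gene gene16428, whose protein in the chloroplast carries growing fatty acids, had signals of 16.19, 17.01 and 16.70 in control and 13.28, 13.90 and 12.94 in RNAi, and fell by 3.26 (SE 0.18, adjusted p = 0.000494), or 9.59-fold. The 3-oxoacyl reductase-like gene01341, an enzyme of the same chain lengthening, had 14.43, 15.01 and 14.85 in control and 12.07, 12.31 and 12.12 in RNAi, and fell by 2.60 (SE 0.13, adjusted p = 0.000343), or 6.05-fold. It belongs to the run of genes described irrespective of change. Both genes kept their groups apart by over 2 units. The ECERIFERUM 1-like gene12177, whose Arabidopsis relative takes part in cuticular wax synthesis, fell by 1.78 (SE 0.11, adjusted p = 0.000604). The descriptions of gene16428 and gene12177 came from genes the study chose as lower in these RNAi samples. The falls of those genes are therefore no independent check.

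The AOP2-like gene14841, described as a probably inactive 2-oxoglutarate-dependent dioxygenase, fell by 2.61 (SE 0.15, adjusted p = 0.000496), and the codeinone reductase-like gene22147 fell by 2.34 (SE 0.23, adjusted p = 0.00181). Both had their descriptions from genes the study chose as lower in these RNAi samples, so their falls are no independent check. FaGalur, the D-galacturonic acid reductase that feeds ascorbate synthesis in strawberry, gave 15.37, 15.91 and 15.60 in control and 13.69, 14.08 and 13.81 in RNAi. It fell by 1.77 (SE 0.11, adjusted p = 0.000568), or 3.41-fold, with little spread between arrays and no overlap between groups. The cysteine protease gene01608, at rank 22, fell by a smaller 1.08 (SE 0.18, adjusted p = 0.00759) and stayed at rank 79.

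The translation list had 4 members, of which 3 were lower and 1 was not called, while of its 30 other described genes 3 were lower and 6 higher. The members described as partial ribosomal genes of the chloroplast, gene32864 and gene32734, were both lower. The first gave 14.75, 15.80 and 14.77 in control and 13.10, 13.45 and 13.19 in RNAi, and the second 14.71, 15.71 and 14.65 in control and 12.98, 13.23 and 13.12 in RNAi. Control 2, the control labelled with Cy3, was the highest for both. They fell by 1.86 (SE 0.18, adjusted p = 0.00176) and 1.91 (SE 0.20, adjusted p = 0.00223). Both descriptions came from genes the study chose as lower in these RNAi samples, so these falls are no independent check. The initiation factor eIF1A-like gene01125 fell by 1.30 (SE 0.15, adjusted p = 0.00284). The ribosomal L7Ae family gene01350 had a ratio of 0.17 (95% interval -0.09 to 0.44, adjusted p = 0.26), so that a change of 2-fold lay outside its interval.

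Stress and defence members had ratios smaller than 1 in size. The metallothionein-like gene00310, of a family of small metal-binding proteins, was the sixth brightest in control. Its signals of 16.85, 17.23 and 17.09 in control and 16.24, 16.50 and 15.73 in RNAi did not overlap, and it fell by 0.90 (SE 0.17, adjusted p = 0.0129), a call that was lost without replicate 2 (-0.98, adjusted p = 0.056) and without replicate 3 (-0.66, adjusted p = 0.0547), with adjusted p from 0.00427 to 0.0641 over the settings. Fraa, named for the Fra a family of strawberry allergens related to pathogenesis-related proteins, gave 16.47, 15.90 and 16.20 in control and 16.49, 16.53 and 16.98 in RNAi. These groups lay next to each other, and the ratio of 0.47 (SE 0.17, 95% interval 0.05 to 0.90, adjusted p = 0.082) did not pass the test. Without replicate 1 it was 0.70 (adjusted p = 0.0113, from 0.0113 to 0.575 over the settings). The heat shock protein gene01495 (HSP90-2), a chaperone, was at 0.40 (95% interval -0.09 to 0.89, adjusted p = 0.17), and the ADP-ribosylation factor gene00282, a small GTPase of vesicle traffic, was at -0.13 (95% interval -0.44 to 0.18, adjusted p = 0.451).

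No described member fell in the lists for photosynthesis, seed proteins, histones and DNA replication, structural wall proteins, wall-loosening enzymes, cytoskeleton, hormones, membrane transport or transcription factors. With 121 members undescribed, this says only that no description placed one there.

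The undescribed members carried most of the rises. The largest were those of gene32880 and gene02738. The signals of gene32880 were 16.12, 15.71 and 15.65 in control and 18.47, 18.05 and 19.14 in RNAi, which brought it from rank 35 to rank 2 with a ratio of 2.73 (SE 0.25, adjusted p = 0.00155), or 6.62-fold. For gene02738 they were 14.66, 14.80 and 14.94 in control and 17.48, 17.15 and 17.73 in RNAi, from rank 118 to rank 13, with a ratio of 2.65 (SE 0.14, adjusted p = 0.000408). With the constant spike-in shift added to the loess ratios, these were among the 4 members above 0, at 0.63 and 0.56. Whether they would stay above 0 with the brightness trend that loess removed was not tested. With median centring of all spots their ratios were 1.30 and 1.20 (limma adjusted p = 0.0977 and 0.115). The largest undescribed falls were those of gene23979, from 16.67, 16.87 and 16.78 in control to 14.14, 14.88 and 14.06 in RNAi, and gene18413, from 15.72, 16.08 and 16.02 to 13.47, 14.10 and 13.18. Their ratios were -2.42 (SE 0.17, adjusted p = 0.000778) and -2.36 (SE 0.18, adjusted p = 0.00107), and neither gene had overlapping groups.

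The brightest gene of RNAi, gene33865, was itself an undescribed member at control rank 5 and was picked out with its values known. It gave 18.08, 16.05 and 17.29 in control 1, 2 and 3 and 18.06, 19.33 and 18.85 in RNAi 1, 2 and 3. On array 1 the samples did not differ, while on array 2 they differed by 3.28, so that the ratio of 1.60 (SE 0.57, 95% interval 0.18 to 3.02, adjusted p = 0.0785) did not pass the test. It was among the spots nearest to saturation, as the brightest member of RNAi 2, whose brightest spot reached 92.7% of the saturation value.

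Identifiers gave further groupings, also seen after the values, for which no test was made. Identifiers numbered above gene32000 made up 12.7% of the members (19 genes) against 6.39% of the tested genes. Of these 19, 8 were higher and 9 lower, 8 had a ratio above 1 and 7 below -1. Of the 120 members with lower numbers, 6 were above 1 and 27 below -1. In the 1348 tested genes of the same range, 18.5% were higher and 14.5% lower, with 132 above 1 and 59 below -1. The run gene07082 to gene07085, 4 consecutive identifiers at control ranks 32 to 124, was lower throughout, with ratios of -0.83, -0.76, -0.96 and -1.13 in the order of their numbers. The other members with consecutive identifiers were the chalcone synthase genes and the pair gene33862 and gene33863, which were higher by 1.74 and 1.72. Neighbouring identifiers can be copies of a family whose probes share transcripts, which was not tested.

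The ratios of the members that were not called lay between -1.22 and 1.60, the groups overlapped for 43 of the 58, and the 95% interval lay within a 2-fold change in either direction for 47 of them. Over all 150 members this was so for 44%, against 75.8% of all tested genes, both on the loess scale. The median SE of a ratio was 0.15 for members and 0.13 over all tested genes. The median SD between control samples was 0.21 for members and 0.19 over all genes, and between RNAi samples 0.17 and 0.11. The lowest member within the threshold, gene26519, had 14.45, 14.75 and 14.37 in control and 14.78, 15.05 and 14.89 in RNAi, and its ratio of 0.38 (SE 0.11, adjusted p = 0.0475) was called only narrowly, with adjusted p from 0.0397 to 0.537 over the settings.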

How the data were processed

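The label descriptions gave 3 control and 3 RNAi samples. One label field calls the RNAi samples overexpressing, and another names floral buds for the extraction, but titles, sources, design and methods name RNAi receptacles and were followed. The deposited scanner output, 1 file per array, was made by the authors with Agilent Feature Extraction 10.7, and holds spot intensity values: median signals and local backgrounds without correction, and processed signals after background subtraction, detrending and dye normalization. Members and gene lists were chosen with earlier results of these data known.

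The rule used the processed signals. For everything else, in R 4.3.3 with limma 3.58.1, median signals were corrected by normexp (offset 50) and normalized by loess within arrays, with control and outlier spots at weight 0. Outlier spots were left out, and spots of a probe and probes of a gene were averaged. Probes entered the test if, in either group, 50% or more of their spots rose well above background on each of the 3 arrays (21218 probes, 21098 genes). Normalized signals per sample came after Aquantile scaling. One log2 ratio per array was tested with lmFit and eBayes, so the array is the replicate block, since samples of a number share an array. Benjamini-Hochberg adjustment ran over all genes, with calls under 0.05. The number of arrays limits the precision. The procedure was also run on simulated data with a uniform shift between groups and few changed genes. These data differ in both respects, so that run does not show how loess acted here.

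Genes were named by rule: all members with a description or array name, the 2 largest called rises and falls among the others, the brightest, the last inside and the first outside the threshold, and the 2 non-members brightest in RNAi. Alternatives covered signal correction, normalization, spike-in scaling, filters, block, dye, test, probe choice, selection and left-out replicates. Descriptions came from the study's tables, 1 of which was at hand only in part. No reference sequence was matched to the array identifiers.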

Additional observations from a re-analysis of the deposited data

How the results depend on the processing

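Of 481 values of named genes under other settings, 433 kept their direction and side of the threshold. Where loess was replaced by median centring of all spots, there were 0 higher and 0 lower members (89 members and 9060 genes at an unadjusted p under 0.05). This setting ended the calls of 30 named genes, reversed gene00646 (-0.16), gene26519 (-1.10), Fraa (-0.97), gene01350 (-1.31) and gene01495 (-1.08), and put the median of the members at -1.68 and of all genes at -0.86. With the processed signals, 15 members were higher and 59 lower (median -0.44), against 32, 60 and -0.20 by loess. The other lost or gained calls were those of gene26519, gene00310, FaDFR1C and Fraa. Against the spike-ins the median was -2.29. The methods' t-test at the study's p and log2 thresholds gave 4 higher and 16 lower, and after Benjamini-Hochberg 26 and 47. With members taken by the mean of both groups the counts were 54 higher and 32 lower (median 0.27), with those of RNAi 80 and 15 (median 0.56), and with the 100 brightest 20 were higher. Chosen on the other arrays, the median was 0.12 on array 2. Leaving out each replicate gave 16 to 37 higher and 45 to 60 lower members. The members' share of the signal turned from -4.38 to 0.34 percentage points with background-subtracted median signals, and that of each sample's own brightest genes moved from 1.33 to 6.25. Among the 100 brightest genes, 57 were shared with RNAi. Without the replicate block, the 6 channels as separate samples gave 32 higher and 61 lower members, 90 of the 92 calls being shared, and of the named genes gene26519 was no longer called (adjusted p = 0.0688). The dye term gave 26 and 57. All members were well above background in all samples. What limits these values was not compared.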
